A study of Rattus norvegicus with 16 samples.

Results

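Lbp, the gene of lipopolysaccharide binding protein, was compared in denervated rat skin with 5 genes of the receptor complex that its protein serves, namely Cd14, Tlr4, Tlr2, Ly96 and Myd88. These 6 genes were taken by name from the probe annotation, and each was read by 1 probeset, among 14217 genes measured. Lbp was chosen by its measured change at 7 days, which was the largest increase of all genes measured, so its values are given as a description with no test. The partners were listed with results of these data known, and their p-values are therefore not independent support for the choice.

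The tissue was hairy skin of the back of adult female Sprague-Dawley rats, on 1 array per sample. The left dorsal and lateral cutaneous nerves were cut and tied on either side of a spared T11 territory, and skin was taken from the rostral denervated strip, served by T9 and T10, after 7 days (5 arrays) or 14 days (5 arrays). Naïve skin (6 arrays) came from the same place in rats with no surgery, so the effect of the operation and that of nerve loss cannot be told apart. All pieces held the attached cutaneous trunci muscle, which kept its own nerve supply.

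Lipopolysaccharide is an outer membrane component of Gram-negative bacteria. LBP, best known as an acute-phase protein of liver, lifts single molecules of it out of membranes and passes them to CD14, which hands them to MD-2 (the product of Ly96) bound to TLR4. The adaptor MyD88 then relays the signal to NF-kappaB. TLR2, which senses bacterial lipoproteins, uses CD14 and MyD88 as well. In skin these receptors are known mainly from macrophages, dendritic cells and keratinocytes.

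Skin and muscle genes were bright on every array, with mean log2 levels of 9.95 to 11.4 for 11 epidermal keratinocyte markers and 11.03 to 12.8 for 14 skeletal muscle markers. Naïve arrays varied more than the others, their lowest correlation with an array of the same group being 0.931, against 0.978 at 7 days and 0.993 at 14 days. Hair follicle markers stood at 12.03 and 12.2 in naïve replicates 1 and 2 and at 6.25 to 6.49 in the other 4 naïve arrays. The 3′ minus middle signal of the actin control probesets, a sign of RNA integrity, was 0.962, 1.20 and 0.848 in naïve replicates 4, 5 and 6 and 0.519 or less on every other array. The 3′ minus 5′ signal, another such sign, was not raised in these replicates. It was 0.499, 0.142 and 0.645 there, against 0.465 to 0.736 on the other arrays, so the 2 measures disagree. The part of these differences in the results below was examined only by leaving arrays out. The number of arrays limits the precision of every value.

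Lbp, on chromosome 3 in the GRCr8 assembly, read 4.45, 5.20, 5.41, 4.61, 3.96 and 4.89 on the 6 naïve arrays, in log2 units of the normalised signal. At 7 days the 5 arrays read 8.95, 8.72, 10.47, 10.44 and 8.88. At 14 days they read 7.50, 5.79, 5.70, 8.04 and 6.97. All 7 day arrays lay above all 14 day arrays, and all of those above all naïve arrays, with replicates 3 and 4 the highest at 7 days and replicates 2 and 3 the lowest at 14 days. Such an order held for 3.31% of all genes in 7 day over naïve skin and 3.69% in 14 day over naïve skin. It held for 11.6% in 14 day under 7 day skin. The mean was 9.49 ± 0.886 (SD, n = 5) at 7 days, against 4.76 ± 0.529 (SD, n = 6) in naïve skin, a log2 fold change of 4.74 (standard error 0.462), or 26.6-fold. At 14 days the mean was 6.80 ± 1.03 (SD, n = 5), a log2 fold change of 2.04 over naïve skin, or 4.13-fold, which ranked 47 among the increases. The log2 fold change of 14 day over 7 day skin was -2.69. On the log2 scale, 43.2% of the 7 day difference from naïve skin was still present at 14 days. Of all genes, 12.8% had a lower mean than Lbp in naïve skin. The lowest value of any probeset on any of the 16 arrays was 3.22, so the fold over naïve skin is the less certain part of these values.

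**Figure D1:**
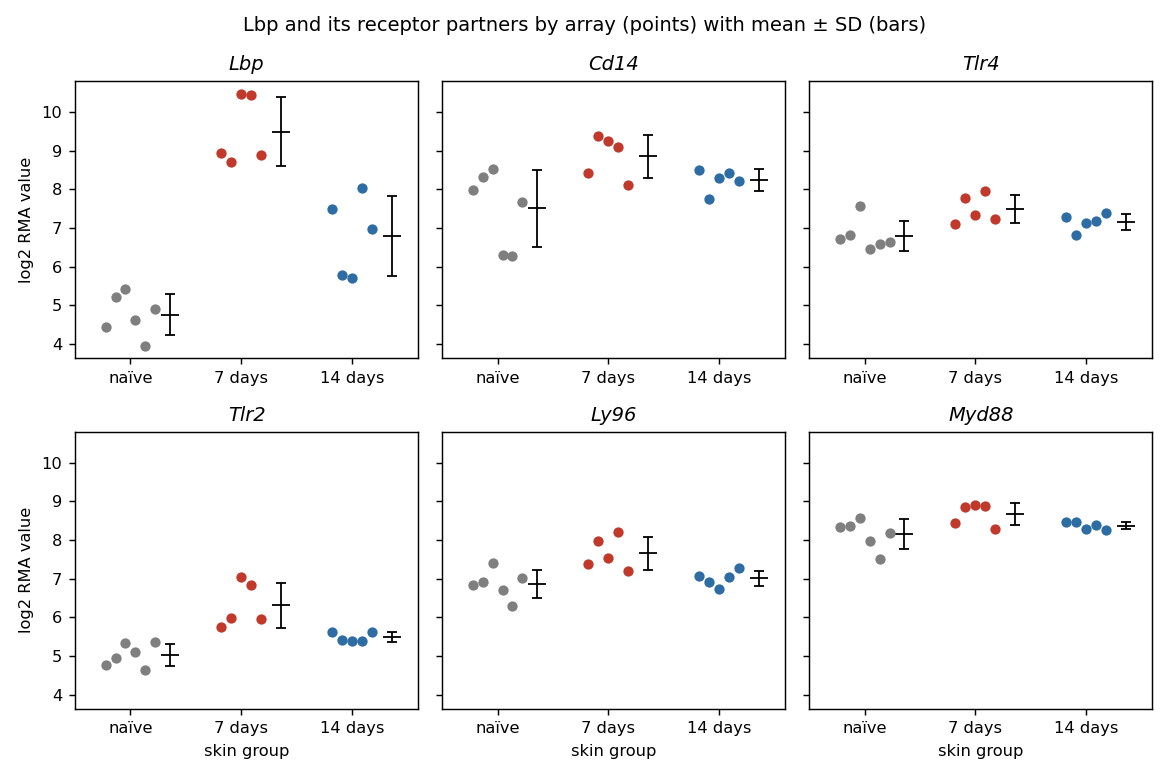
Log2 RMA value of the 6 genes (vertical axis) on each naïve, 7 day and 14 day array (points in replicate order), with the group mean and SD beside them. Lbp, chosen by its 7 day change, separates the 3 groups with no overlap, from 8.72 to 10.47 at 7 days against 3.96 to 5.41 in naïve skin. The partners change by less and mostly overlap. Of all genes, 3.31% lie wholly above naïve skin at 7 days and 3.69% at 14 days, and 11.6% lie wholly lower at 14 than at 7 days.

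Genes next to Lbp on chromosome 3 showed no such change. Of the 5 nearest genes on each side, 7 were measured and none passed limma at 7 days, with log2 fold changes of -0.14 to -0.02. Bpi, the immediate neighbour and a relative of Lbp in the same lipid-transfer family, was not among the genes measured.

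Promoter sequence was at hand for 4 of the 6 members (Cd14, Tlr4, Tlr2 and Myd88), in the RefSeq windows of GRCr8. The 250 bases before each start site were searched on both strands for motifs of factors known in Toll-like receptor and macrophage genes: NF-kappaB, AP-1 (TGANTCA), C/EBP (TTGCNNAA), STAT (TTCNNNGAA) and PU.1 (GAGGAAG). The stretches that hold a match are shown because all 4 genes had their highest mean at 7 days, with the matched bases in capitals, read 5′ to 3′ on the strand of the gene.
Cd14, chr18:28611280-28611309, minus strand: agggttgttagGAGGAAGagaagtggggaa
Cd14, chr18:28611245-28611274, minus strand: ttgagttcacaGAGGAAGggacagggtgac
Tlr4, chr5:85161168-85161197, plus strand: atgaaagccagCTTCCTCttgctgttcctc
Tlr2, chr2:171504743-171504772, minus strand: aggcccttgGGGGAATTCCCatacggagcc
Tlr2, chr2:171504580-171504609, minus strand: ccctggcctgGGGACGTCCCcttcccgcac
Myd88, chr8:127956420-127956449, minus strand: ctaaacaaggcTGAATCActtcaccacgca
Myd88, chr8:127956233-127956262, minus strand: ggggcggagcTTCTCGGAAagcgaaaggag

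Cd14 held PU.1 matches at -140 and at -105 from its start site, and Tlr4 held one on the opposite strand at -68. Tlr2 held NF-kappaB matches at -206 and -205, which overlap, and at -42. Myd88 held an AP-1 match at -208 and a STAT match at -22. A C/EBP match was found in none of the 4. Of all 33469 windows, 6.33% held an NF-kappaB match, 6.34% AP-1, 9.22% C/EBP, 7.67% STAT and 10.2% PU.1. These matches are a description of the letters.

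At 7 days 4 of the 5 partners were higher than in naïve skin by limma with Benjamini-Hochberg adjustment over all genes, where 7.85% of all genes were called higher and 2.66% lower. Tlr2, Cd14, Ly96 and Tlr4 passed and Myd88 did not. Their log2 fold changes ran from 0.52 to 1.34, against 4.74 for Lbp and a median of -0.02 over all genes.

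Cd14, the co-receptor that takes lipopolysaccharide from LBP, read 7.97, 8.33, 8.53, 6.29, 6.28 and 7.68 on the naïve arrays. The 7 day arrays read 8.42, 9.38, 9.26, 9.10 and 8.12, and the 14 day arrays 8.50, 7.76, 8.31, 8.42 and 8.22. Naïve replicates 4 and 5, which also stood apart in 3′ minus middle actin signal, were more than 1 log2 unit below all other arrays, and the groups overlapped. Cd14 averaged 8.85 ± 0.554 at 7 days (SD, n = 5) and 7.51 ± 0.994 in naïve skin (SD, n = 6), a log2 fold change of 1.34 (standard error 0.397, limma adjusted p = 0.0434). Without naïve replicates 4 and 5 the change was 0.73 (limma adjusted p = 0.158), and without either of them alone 1.10 (limma adjusted p = 0.0914 and 0.0911), so the call for Cd14 rests on these arrays. It was also lost without any one of naïve replicate 6, 7 day replicates 2, 3 and 4 and the 5 arrays of 14 days, at 1.21 to 1.37.

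Tlr4, the signalling receptor, read 6.71, 6.82, 7.56, 6.45, 6.59 and 6.63 in naïve skin. It read 7.11, 7.78, 7.34, 7.96 and 7.24 at 7 days and 7.28, 6.81, 7.14, 7.17 and 7.39 at 14 days. Naïve replicate 3 stood inside the 7 day range, and the other naïve arrays lay below it. The 7 day mean was 7.49 ± 0.366 (SD, n = 5), against 6.80 ± 0.394 (SD, n = 6) in naïve skin, a log2 fold change of 0.69 (standard error 0.193, limma adjusted p = 0.0339). The call was lost without naïve replicate 4, 5 or 6 or 7 day replicate 2, 3 or 4 (0.57 to 0.73), and without naïve replicates 4 and 5 together (0.56, limma adjusted p = 0.178).

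Ly96, whose product MD-2 holds the lipid part of lipopolysaccharide on TLR4, also read highest at 7 days on average. Its values were 6.84, 6.91, 7.39, 6.70, 6.28 and 7.03 in naïve skin, 7.37, 7.98, 7.54, 8.21 and 7.20 at 7 days, and 7.06, 6.92, 6.74, 7.05 and 7.27 at 14 days. Naïve replicate 3 was again the highest of its group and overlapped with 7 day replicates 1 and 5. The log2 fold change at 7 days was 0.80 (standard error 0.196, limma adjusted p = 0.0194), and it was 0.62 without naïve replicates 4 and 5 (limma adjusted p = 0.105) and 0.66 without 7 day replicate 4 (limma adjusted p = 0.0610).

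Tlr2 was the only partner whose 7 day arrays all lay above its naïve arrays, an arrangement seen in 3.31% of all genes. It read 4.76, 4.95, 5.33, 5.11, 4.65 and 5.36 in naïve skin, 5.74, 5.98, 7.03, 6.83 and 5.96 at 7 days, and 5.62, 5.42, 5.39, 5.40 and 5.61 at 14 days. As for Lbp, the highest 7 day arrays were replicates 3 and 4. The log2 fold change at 7 days was 1.28 (standard error 0.213, limma adjusted p = 0.0035), or 2.43-fold. The call held without any single array, without naïve replicates 1 and 2 or 4 and 5, and without 7 day replicates 3 and 4.

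Myd88, the adaptor shared by most Toll-like receptors, had the smallest difference at 7 days. Its values were 8.33, 8.36, 8.58, 7.97, 7.51 and 8.19 in naïve skin, 8.45, 8.85, 8.92, 8.87 and 8.28 at 7 days, and 8.46, 8.46, 8.27, 8.38 and 8.26 at 14 days. The groups overlapped throughout. The log2 fold change at 7 days was 0.52 (standard error 0.164, limma adjusted p = 0.0567), with a 95% interval of 0.17 to 0.87. It passed without naïve replicate 1, 2 or 3 or 7 day replicate 5, at 0.55 to 0.62.

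By 14 days none of the 5 partners passed against naïve skin, where 8.95% of all genes were called higher and 14.6% lower. Their log2 fold changes were 0.73 for Cd14 (95% interval -0.12 to 1.57, limma adjusted p = 0.183), 0.46 for Tlr2 (0.119), 0.36 for Tlr4 (0.172), 0.21 for Myd88 (0.351) and 0.15 for Ly96 (0.598). The intervals do not show that these genes were at naïve levels. Tlr2 alone among the partners kept all its 14 day arrays above its naïve arrays, which 3.69% of all genes did. Without naïve replicate 3, Tlr4 passed at 14 days (0.52, limma adjusted p = 0.0364).

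Between the times, Tlr2 and Ly96 were lower at 14 days than at 7 days, with log2 fold changes of -0.82 (standard error 0.222, limma adjusted p = 0.0228) and -0.65 (standard error 0.205, limma adjusted p = 0.0386). Over all genes, 8.86% were called higher and 10.1% lower in this comparison. All 14 day arrays of Tlr2 lay below all of its 7 day arrays, as in 11.6% of all genes. Cd14 (-0.61, 95% interval -1.50 to 0.27), Tlr4 (-0.33) and Myd88 (-0.31) did not pass (limma adjusted p = 0.291, 0.245 and 0.205). The call for Tlr2 was lost without 7 day replicate 3 or 4 or 14 day replicate 3 (-0.79 to -0.64), and that for Ly96 without 7 day replicate 2, 3 or 4 or any one 14 day array (-0.72 to -0.51).

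The share of the 7 day log2 difference still present at 14 days was 54.3% for Cd14, 52.5% for Tlr4, 43.2% for Lbp, 40.9% for Myd88, 36.2% for Tlr2 and 18.6% for Ly96. All 6 read highest at 7 days and intermediate at 14 days in their means. For the partners these shares rest on single arrays: without naïve replicate 5 the 14 day change was 0.034 for Ly96, 0.082 for Myd88 and 0.48 for Cd14. Without naïve replicate 4 it was 0.48 for Cd14, and for Ly96 it was 0.256 without naïve replicate 3 and 0.083 without 14 day replicate 5. The change of Tlr4 between the times was -0.21 without 7 day replicate 4. The comparisons share arrays, and the shares were not tested against each other.

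**Figure D2:**
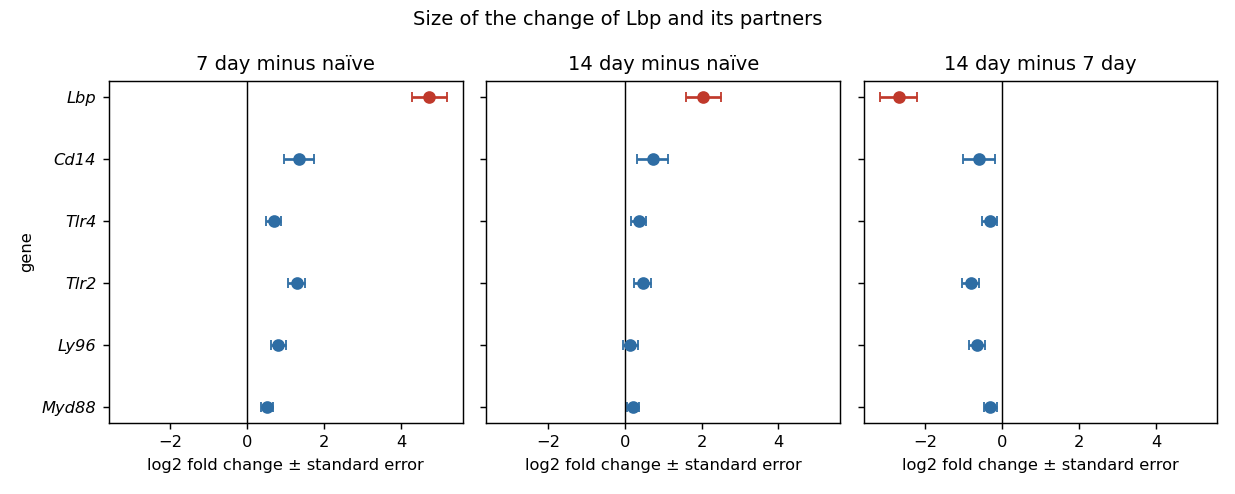
Log2 fold change (horizontal axis, point) with its standard error (bar) of Lbp (red) and 5 partners (blue) in the 3 comparisons. Lbp stands at 4.74, 2.04 and -2.69, while the partners lie between 0.52 and 1.34 at 7 days, 0.15 and 0.73 at 14 days, and -0.82 and -0.31 between the times.

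The distance of Lbp from its partners also shifted. Lbp minus Tlr2 on the same array averaged 3.18 ± 0.361 log2 units at 7 days (SD, n = 5), 1.31 ± 0.994 at 14 days (SD, n = 5) and -0.27 ± 0.363 in naïve skin (SD, n = 6). Lbp minus Tlr4 averaged 2.00, -0.36 and -2.04 in the same groups. Only the shift between groups carries meaning, as probesets differ in brightness. Over the 16 arrays, Lbp correlated with Tlr2 at 0.917 and with the other partners at 0.735 to 0.798. After the group means were taken out these were 0.686 and 0.459 to 0.541. The closest pair among the partners was Cd14 and Myd88, at 0.920, or 0.871 within groups. These correlations are over arrays that share 3 groups.

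Macrophage and monocyte markers moved with the members. Of 16 measured, 13 were higher at 7 days (81.2%, against 7.85% of all genes) and none was lower. Their median log2 fold change was 1.48. The count of 13 fell to 8 without naïve replicates 4 and 5 (50%, against 2.43% of all genes). It was 9 without 7 day replicate 4 and 0 without 7 day replicates 3 and 4. Cd68, a lysosomal glycoprotein, was at 1.49, Cybb, the phagocyte oxidase subunit, at 1.96, and Cd163, a scavenger receptor, at 1.85. At 14 days 3 of 16 were higher than in naïve skin (18.8%, against 8.95% of all genes, median 0.81). Against 7 days 5 were lower (31.2%, against 10.1% of all genes, median -0.69). With 1 array left out, the first of these counts ran from 1 (without naïve replicate 4 or 5, or 14 day replicate 1, 3, 4 or 5) to 11 (without naïve replicate 3), with 5 without naïve replicate 2. The count of 5 fell to 0, 1 or 2 without any one of 7 day replicates 2, 3 and 4 or of the 14 day arrays. Their mean log2 level ran from 8.11 to 8.99 on 7 day arrays, 7.79 to 8.09 on 14 day arrays and 5.98 to 8.39 on naïve arrays, lowest in naïve replicates 4 and 5. In whole tissue, fewer cells of a type and less RNA per cell cannot be told apart.

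Cd14 stayed near the macrophage level in all groups, the gene minus the marker mean being 0.24 ± 0.242 at 7 days (SD, n = 5), 0.30 ± 0.255 at 14 days (SD, n = 5) and 0.38 ± 0.372 in naïve skin (SD, n = 6). Tlr2 differed little between groups on this measure, at -2.31, -2.45 and -2.11. Tlr4 (-1.13, -0.78 and -0.34), Ly96 (-0.96, -0.94 and -0.28) and Myd88 (0.06, 0.42 and 1.02) read lower against the markers at 7 and 14 days than in naïve skin. Lbp read higher, at 0.88 ± 0.721 at 7 days, -1.14 ± 0.951 at 14 days and -2.38 ± 0.474 in naïve skin. Naïve replicate 3 had a macrophage level of 8.39 with Lbp at 5.41, whereas 7 day replicates 1 and 5, at 8.11 and 8.23, had Lbp at 8.95 and 8.88. The part of macrophage content in the members' changes was not tested.

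**Figure D3:**
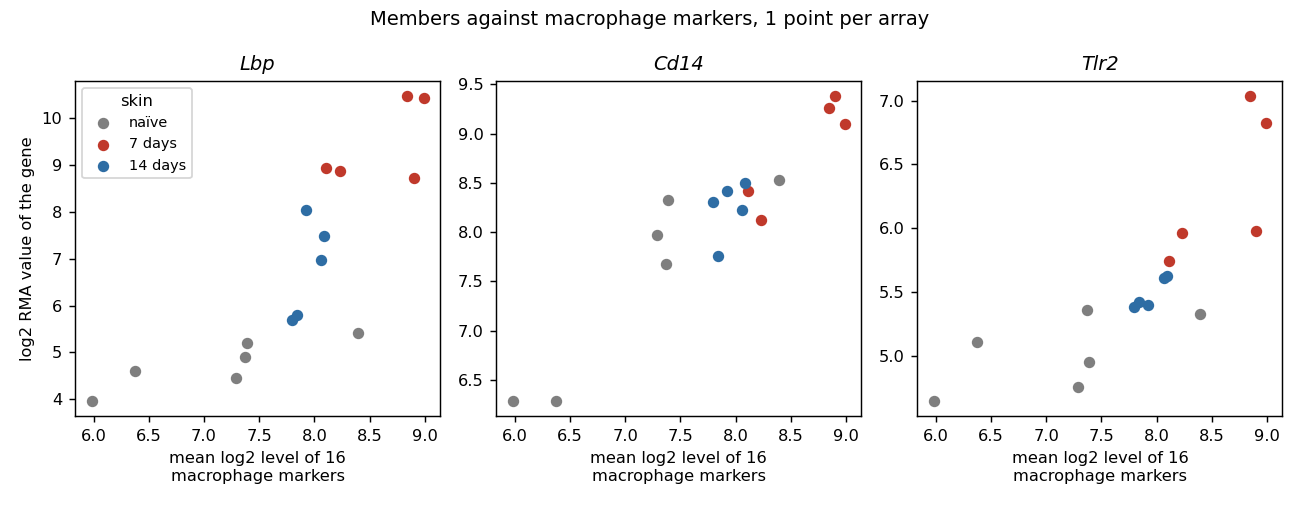
Log2 value of Lbp, Cd14 and Tlr2 (vertical axes, each with its own scale) against the mean log2 level of 16 macrophage markers (horizontal axis), 1 point per naïve, 7 day or 14 day array. Cd14 lies along 1 band over the groups, while 7 day arrays lie above naïve replicate 3 in Lbp at like marker levels.

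Fibroblast markers also moved. Of 12, 6 were higher at 7 days (50%, against 7.85% of all genes, median 1.06). Among them were Thy1 at 2.24 and Lum, a dermal proteoglycan, at 2.02. At 14 days 3 were higher (25%, against 8.95% of all genes, median 0.73). The 7 day count was 4 without naïve replicates 4 and 5 (33.3%, against 2.43% of all genes). It was 10 without naïve replicates 1 and 2 (83.3%, against 19% of all genes). Lbp minus the fibroblast mean was -1.94 ± 0.752 at 7 days (SD, n = 5), -4.19 ± 0.907 at 14 days (SD, n = 5) and -5.49 ± 0.419 in naïve skin (SD, n = 6). Of 7 endothelial markers, 5 were higher at 7 days (71.4%, against 7.85% of all genes) and none at 14 days. Without naïve replicates 4 and 5 none was higher at 7 days.

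Markers of liver, fat and other blood cells did not pass at 7 days. This was so for all 10 hepatocyte markers, Alb (albumin) reading 6.30 at 7 days and 6.14 in naïve skin. The same was true of 9 adipocyte, 6 neutrophil, 7 mast cell and 7 T cell markers. At 14 days the hepatocyte list had 3 members higher (Ttr, Apoh and Serpina1) and the neutrophil list 1 (S100a9). These were 30% and 16.7% of the lists, against 8.95% of all genes. Hair follicle markers had 8 of 9 higher at 14 days (88.9%, against 8.95% of all genes). Skeletal muscle markers had 8 of 14 lower (57.1%, against 14.6% of all genes). None of either passed at 7 days. The 14 day counts were 0 of 9 and 1 of 14 without naïve replicates 4 and 5 (0% and 7.14%). In that setting 1.77% of all genes were called higher and 4.98% lower at 14 days. Without naïve replicates 1 and 2, the naïve arrays with high hair follicle markers, all 9 hair follicle markers were higher and all 14 muscle markers lower at 7 days. In that setting 19% of all genes were called higher and 16.4% lower. The part of these shifts in the members' values was not tested.

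The genes whose values followed Lbp most closely over the 16 arrays were Ptgis, the prostacyclin synthase (Pearson r = 0.967), Timp1, an inhibitor of matrix metalloproteinases (0.965), and Trem2, a lipid receptor of macrophages (0.961). They were followed by Adamts15, P4ha3, Cthrc1, Lipa, Plat, Sfrp2 and Col5a3, down to 0.941. Timp1, Cthrc1 and Sfrp2 changed by 3.95, 3.77 and 4.09 at 7 days, and Trem2 by 1.04. The closest to Cd14 were Colec12, Folr2 and Efhd2 (0.969 to 0.965), to Tlr4 Glipr1, Cxcl13 and Prrx1 (0.934 to 0.925), and to Tlr2 Ninj1, Cd300c2 and Slc41a2 (0.965 to 0.944). Arhgap17, Pros1 and Lmo2 were closest to Ly96 (0.960 to 0.958), and Gng10, Sfxn1 and Ergic3 to Myd88 (0.967 to 0.966). All these correlations are over arrays that share 3 groups, and values with the group means taken out are not given for these genes. Sfrp2 also lies 2 genes from Tlr2 on chromosome 2.

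Among 15 other receptors and chaperones of this system that were measured, 7 were higher at 7 days (46.7%, against 7.85% of all genes) and none was lower, with a median log2 fold change of 0.54. Without naïve replicates 4 and 5 the count was 2 (13.3%, against 2.43% of all genes). Unc93b1, which carries nucleic acid-sensing Toll-like receptors to endosomes, was at 1.47 (limma adjusted p = 0.0035). Tlr8 and Tlr7, endosomal receptors of single-stranded RNA, were at 1.15 (0.0209) and 0.54 (0.0210), with Tlr7 near the dim end of the arrays at a naïve mean of 3.85. Hsp90b1 and Cnpy3, the chaperones that fold Toll-like receptors, were at 0.63 and 0.57 (limma adjusted p = 0.0134 and 0.0239). Itgb2, a leukocyte integrin chain, and Scarb1, a lipoprotein receptor that also takes up lipopolysaccharide, were at 0.85 and 0.64. At 14 days Itgam was higher than in naïve skin (0.54) and Nod1 and Casp4, cytosolic sensors, were lower (-0.38 and -0.70). Unc93b1 and Itgb2 were lower at 14 days than at 7 days (-0.83 and -0.77).

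Of 28 adaptors, kinases and transcription factors downstream, Ripk1 was higher (0.31) and Tab2 lower (-0.21) at 7 days, each 3.57% of the list against 7.85% and 2.66% of all genes. The list median was 0.07. Fos, a subunit of AP-1, and Irf7, an interferon regulator, were at -1.08 (standard error 0.427) and 0.56 (standard error 0.193) and did not pass (limma adjusted p = 0.111 and 0.0734). Tirap, Ticam1, Irak1 and Traf6 had log2 fold changes of 0.06, 0.14, 0.19 and 0.05 and did not pass. At 14 days Irak4 was higher than in naïve skin (0.29), and Tbk1 (-0.52), Tab2 (-0.33), Nfkb1 (-0.26) and Irf3 (-0.26) were lower. Against 7 days, Tbk1, Nfkb1, Irak2, Ikbkb and Chuk were lower at 14 days, by up to 0.62 log2 units.

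Of 23 negative regulators, 3 were higher at 7 days (13%, against 7.85% of all genes). Without naïve replicates 4 and 5, 1 was (4.35%, against 2.43% of all genes). Il1rl1, the receptor of interleukin 33, was at 2.42 (limma adjusted p = 0.000342), reading 8.22 at 7 days and 5.80 in naïve skin. Irak3, a kinase-like brake on MyD88 signalling, was at 0.85 (limma adjusted p = 0.0297), and Inpp5d, a lipid phosphatase of blood cells, at 0.62. At 14 days Il1rl1 (0.88) and Socs1 (0.14) were higher than in naïve skin, and Nfkbia (-0.82), Tnip1 (-0.34) and Cyld (-0.16) were lower. These shares, 8.7% and 13%, were near the 8.95% and 14.6% of all genes. Il1rl1, Irak3 and Bcl3 were lower at 14 days than at 7 days (-1.54, -0.74 and -0.36), and Socs1 was higher (0.21).

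These 3 lists held 66 genes together. At 7 days 11 of them (16.7%) were higher than in naïve skin and 1 (1.52%) was lower, against 7.85% and 2.66% of all genes. The 14 day counts were 4 (6.06%) and 9 (13.6%), against 8.95% and 14.6% of all genes, and those of 14 day against 7 day skin 1 (1.52%) and 10 (15.2%), against 8.86% and 10.1%. The 14 day shares against naïve skin were thus near those of all genes. The 7 day count of 11 was 3 without naïve replicates 4 and 5, where 2.43% of all genes were higher. It was 6, 4 and 3 without 7 day replicates 2, 3 and 4, and 4 without naïve replicate 4. For these single arrays the share of all genes is not given.

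The 15 other genes for transfer and clearance of lipopolysaccharide had a median log2 fold change of -0.02 at 7 days, as all genes did. Lyz2 (2.15), also a macrophage marker, and Scarb1, also among the receptors, were higher, and Bpifb1 (-0.35), of the same family as Lbp, was lower. That was 13.3% and 6.67% of the list, against 7.85% and 2.66% of all genes. Pltp, the phospholipid transfer protein and another relative of Lbp, stood at 1.71 (standard error 0.575) and did not pass (limma adjusted p = 0.0684). At 14 days Bpifa2 was higher (0.42) and Bpifb1 lower (-0.34) than in naïve skin, each 6.67% of the list, against 8.95% and 14.6% of all genes. Bpifa2, Apoa4, Bpifa1 and Bpifb2 were higher than at 7 days, by 0.23 to 0.53 (26.7%, against 8.86% of all genes). Of these, Bpifa2, Bpifa1 and Bpifb2 read dimly, at 14 day means of 5.22, 5.39 and 4.93.

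Of 37 inflammatory genes that the pathway is known to induce, Vcam1, an endothelial adhesion molecule, at 2.57 (limma adjusted p = 0.00295), and Plau, the urokinase gene, at 0.87, were higher at 7 days, and none was lower. That was 5.41% of the list, against 7.85% of all genes, and the list median was 0.05. The cytokines Tnf, Il1b and Il6 had log2 fold changes of -0.05, -0.27 and 0.12 (limma adjusted p = 0.631, 0.430 and 0.615), and Ptgs2 and Nos2 of 0.25 and -0.07. Il6 and Ptgs2 stood near the dim end of the arrays, at naïve means of 4.02 and 3.86, with Tnf at 5.15. A change in such dim genes can be missed. Ccl2, a monocyte chemokine, was at 1.55 (standard error 0.585) and did not pass (limma adjusted p = 0.0975). At 14 days Il1rn (1.07), Ccl4 (0.40) and Mmp9 (0.20) were higher than in naïve skin and Sod2 (-0.43) was lower. That was 8.11% and 2.7% of the list, against 8.95% and 14.6% of all genes. None of the list passed at 14 days without naïve replicates 4 and 5, where 1.77% of all genes were higher and 4.98% lower. Vcam1 and Sod2 were lower at 14 days than at 7 days (-1.95 and -0.55), and Csf3 and Il12a higher, by 0.18 and 0.19. Each direction was 5.41% of the list, against 10.1% lower and 8.86% higher over all genes. Mmp9, Csf3 and Il12a were dim, at 14 day means of 4.32, 4.66 and 4.77.

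Lbp is also an acute-phase gene, and 34 others of that class or its regulators were measured. At 7 days 4 were higher (11.8%, against 7.85% of all genes) and none lower, with a list median of 0.01. Without naïve replicates 4 and 5, 1 was higher and 1 lower (2.94% each, against 2.43% and 0.324% of all genes). Lcn2, which binds bacterial siderophores, was at 1.91 (limma adjusted p = 0.0103), C3, the central complement component, at 1.61 (limma adjusted p = 0.00224), Il6st, the shared receptor chain of the interleukin 6 family, at 0.52, and Stat3, its transcription factor, at 0.33. Crp, Orm1 and Hp, classical products of liver, had log2 fold changes of -0.06, -0.09 and 0.08 and did not pass. Their naïve means were 5.36, 4.67 and 6.15, so Crp and Orm1 read dimly. At 14 days Serpina1 (1.70), Mt2A (1.33), S100a9 (1.27) and Ttr (0.41) were higher than in naïve skin. That was 11.8% of the list, against 8.95% of all genes, and none was lower, against 14.6% of all genes. The count was 1 without naïve replicates 4 and 5 (2.94%, against 1.77% of all genes). C3, Il6r, Stat3 and Hp were lower at 14 days than at 7 days (-1.43, -0.81, -0.32 and -0.18), and Ttr, Hamp and Serpina3m higher, by 0.28 to 0.42. These were 11.8% and 8.82% of the list, against 10.1% and 8.86% of all genes.

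**Figure D4:**
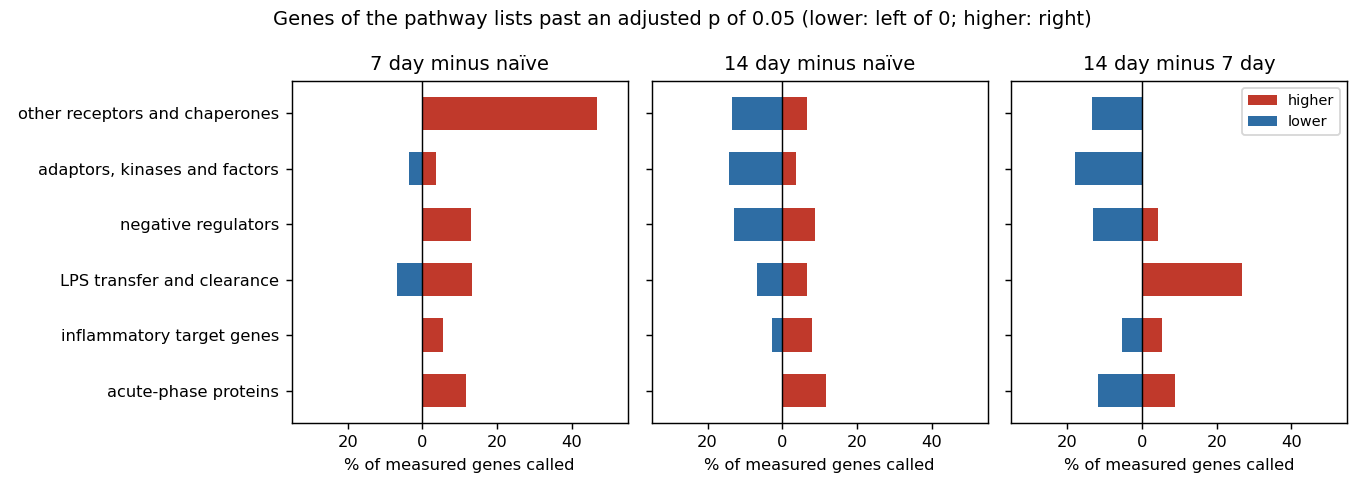
Share of the measured genes of 6 lists around Lbp (horizontal axis, percent) that were higher (red, right of 0) or lower (blue, left of 0) by limma in the 3 comparisons. At 7 days the other receptors and chaperones have 7 of 15 genes higher (46.7%) and the adaptor list 1 of 28 (3.57%), against 7.85% of all genes. Without naïve replicates 4 and 5 these counts are 2 and 0, against 2.43% of all genes.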

How the data were processed

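RNA was hybridised to 16 Affymetrix whole-genome rat arrays. The deposited values are log2 intensities that the authors had background-corrected, normalised and summarised per probeset with RMA, and per the labels the submitters' processing notes name R 3.0.1, with no RMA version given in the sources used here. Of 31099 probesets, 57 controls, 9780 with no gene and 436 with several genes were left out, and 20826 were collapsed to the median per gene. Symbols were updated through Entrez identifiers in RefSeq (GRCr8).

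The comparisons used limma 3.58.1 in R 4.3.3, with 1 mean per group, all 16 arrays and Benjamini-Hochberg adjustment over 14217 genes at a threshold of 0.05. The test was tested on simulated data with independent normal noise of the same spread in all groups. Naïve arrays varied more than the others here, so that check does not vouch for the calls. Log2 fold changes are the group named first minus the other. The members and gene lists were chosen with earlier results of these data known. Lists are described by counts and medians. Named genes are the members, up to 4 genes per list, comparison and direction with the largest statistic, the 10 genes most correlated with Lbp and 3 with each partner, and markers. A few further genes were named with their values already seen: those completing a count of 5 or fewer or 7 receptors, and list members that did not pass, namely Fos, Irf7, Tnf, Il1b, Il6, Tirap, Ticam1, Irak1, Traf6, Pltp, Ccl2, Ptgs2, Nos2, Crp, Orm1, Hp and Alb. Some genes stand in more than 1 list. Nothing in the labels says that samples were pooled, and p-values measure the spread between these samples. The main comparisons did not pair samples by replicate number. Between groups, deviations of same-numbered arrays correlated at 0.0585 on average, against -0.0128 for other numbers, and 8 of 15 same-numbered pairs were above 0.1. These values do not settle whether the numbers pair the samples. Alternatives changed the probeset collapse, dim genes, scaling, moderation, weights, arrays and a replicate block.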

Additional observations from a re-analysis of the deposited data

Results flagged for a closer look

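Tlr4 in naïve replicate 3, at 7.56, stood apart from the other naïve arrays (6.45 to 6.82), the gap being 0.672 of the range. This was 1 of 18 such checks on the members, and chance gives about 1 in 20.

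For 28 of the 156 genes measured in the pathway lists, Lbp left out, the change from naïve skin differed between the times, tested as 14 day minus 7 day skin by limma. This was 17.9%, against 8.86% higher and 10.1% lower over all genes, so the share is near that of all genes. Among members these were Tlr2 (-0.82) and Ly96 (-0.65). Among receptors and regulators, lower values at 14 days were seen for Unc93b1 (-0.83), Itgb2 (-0.77), Il1rl1 (-1.54), Irak3 (-0.74) and Bcl3 (-0.36), and a higher one for Socs1 (0.21). Tbk1 (-0.62), Nfkb1 (-0.38), Irak2 (-0.30), Ikbkb (-0.24) and Chuk (-0.23) were lower among kinases and factors. Among target and acute-phase genes, Vcam1 (-1.95), C3 (-1.43), Il6r (-0.81), Sod2 (-0.55), Stat3 (-0.32) and Hp (-0.18) were lower. Apoa4 (0.53), Bpifa2 (0.44), Ttr (0.42), Hamp (0.33), Bpifa1 (0.32), Serpina3m (0.28), Bpifb2 (0.23), Il12a (0.19) and Csf3 (0.18) were higher at 14 days.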

How the results depend on the processing

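Lbp kept its direction in all comparisons under all 12 alternatives, its 7 day change running from 4.09 (without 7 day replicates 3 and 4) to 4.77, and from 4.49 to 4.93 with 1 array left out. Tlr2 kept its 7 day call under all of them. The values below are log2 fold changes with limma adjusted p. With only the 2 groups compared, calls at 7 days were lost for Cd14 (1.34, 0.127), Tlr4 (0.69, 0.102) and Ly96 (0.80, 0.0750), Tlr2 passed at 14 days (0.46, 0.0379), and 2 of the 66 pathway genes were higher at 7 days. The replicate block lost Cd14 (1.37, 0.0689), Tlr4 (0.66, 0.111) and Ly96 (0.84, 0.0538) at 7 days and Ly96 between the times (-0.65, 0.0682). With the block 6 pathway genes were higher at 7 days, 2 lower at 14 days and 6 lower between the times. In 5 of 16 arrays the best-correlated array had the same number. Without naïve replicates 4 and 5, Cd14 (0.73, 0.158), Tlr4 (0.56, 0.178) and Ly96 (0.62, 0.105) were lost at 7 days, and Ly96 at 14 days changed sign (-0.035, 0.920). In that setting 3 of the 66 pathway genes were higher at 7 days and 4 lower at 14 days, against 2.43% and 4.98% of all genes. Without naïve replicates 1 and 2, Myd88 passed at 7 days (0.61, 0.0186). There 15 of the 66 pathway genes were lower at 14 days, where 21.8% of all genes were. For the other settings here and below the share of all genes is not given, so their pathway counts are not results about the pathway.

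An alternative chosen after seeing the data left out 7 day replicates 3 and 4. It lost Cd14 (1.13, 0.286), Tlr4 (0.58, 0.224) and Ly96 (0.66, 0.167) at 7 days and Tlr2 (-0.40, 0.147) and Ly96 (-0.51, 0.197) between the times, Tlr2 passed at 14 days (0.46, 0.0269), 1 pathway gene was higher at 7 days and 2 were lower between the times. A second quantile normalisation lost Tlr4 at 7 days (0.61, 0.0509) and Ly96 between the times (-0.58, 0.0709), with 5 pathway genes lower at 14 days and 5 lower between the times. Subtracting array medians gave 6 lower between the times. Array weights let Cd14 at 14 days (0.77, 0.0445) and Myd88 at 7 days (0.52, 0.0181) pass, with 18 pathway genes lower at 14 days. With the dimmest 0.25 of genes left out Myd88 passed (0.52, 0.04999). The causes of these changes were not tested, apart from the fewer arrays or genes that the alternatives themselves use.

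Leaving out 1 array at a time gave 7 day changes of 1.10 to 1.54 for Cd14, 0.57 to 0.84 for Tlr4, 0.66 to 0.92 for Ly96 and 0.39 to 0.62 for Myd88. At 14 days Cd14 ran from 0.48 to 0.93, Tlr4 from 0.29 to 0.52, Tlr2 from 0.39 to 0.53, Ly96 from 0.034 to 0.256 and Myd88 from 0.082 to 0.296, and between the times Tlr2 from -0.96 to -0.64 and Ly96 from -0.77 to -0.51. The pathway counts ran from 3 to 13 higher at 7 days, from 0 to 9 higher at 14 days, with 3 to 11 lower, and 4 to 13 lower between the times. The macrophage counts ran from 9 to 16 higher at 7 days, 1 to 11 higher at 14 days and 0 to 7 lower between the times, and over all settings from 0 to 16, 0 to 11 and 0 to 11. Over all settings, genes called at 7 days numbered 127 to 2706 higher and 11 to 2334 lower, at 14 days 251 to 3572 and 708 to 3411, and between the times 110 to 2265 and 183 to 2589.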
